A study of Homo sapiens with 4 samples.

Results

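The array of MDS-L cells treated with decitabine (DAC) was set against the array of SKM-1 cells treated with DAC. These are 2 of the 4 arrays of the study, chosen by their labels alone, and the log2 difference was taken as MDS-L minus SKM-1 for every probe set that the array annotation gives 1 gene symbol. MDS-L is a human cell line from a patient with myelodysplastic syndrome (MDS), and SKM-1 is a human leukemia line that arose from MDS in another patient. Treated cells of either line received 1 μM DAC in 5 pulses of 24 h, and the DMSO arrays of the same lines serve as a reference. All cells grew in RPMI medium with serum and antibiotics, but only MDS-L was given IL-3 (100 U/ml), which it needs to grow. The cell line and the IL-3 in its medium therefore cannot be told apart. Each line and treatment has 1 array, so no value has a replicate, no test was possible, and nothing in the labels says how many cultures gave the RNA.

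DAC is a cytidine analog that is built into DNA during replication and traps DNA methyltransferases there, so that methylation is lost as cells divide. Loss of methylation is known to reopen silenced genes and, in many cancer cells, to turn on genes that interferon induces. MDS arises in blood stem and progenitor cells, and cell lines from it can carry programs of stem cells, megakaryocytes, mast cells, granulocytes or monocytes side by side.

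The deposited values ran from 2.11 to 14.99 (log2 expression value), and the sorted values of the DAC arrays lay within 0.12 of each other at every rank. The background level of an array, set at the 90th percentile of 359 olfactory receptor probe sets on it, was 5.09 for MDS-L and 5.07 for SKM-1 with DAC, and 4.84 and 4.88 with DMSO. A value under background was raised to that level, and ratios to it are lower bounds, given as "at least". Where several probe sets shared a gene, the one with the highest 4-array mean was used, and a gene counted as measured if it lay above background on at least 1 of the 2 DAC arrays, which held for 13062 of 18132 genes.

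Genes that differed 2-fold or more between the treated lines were found in both directions. Of the measured genes, 1964 (15%) were higher by 2-fold or more in MDS-L and 2034 (15.6%) were higher by 2-fold or more in SKM-1. The split depends on how probe sets are joined to genes, with 1384 and 1778 by the median over probe sets and 1092 and 1476 where every probe set had to pass. The shares of 15% and 15.6% are the background against which each gene group below is read. Counts and medians of a list with DMSO are over its members measured with DAC. A member under background in both lines with DMSO entered at the difference of the background levels (-0.04). Part of a change in a list from DMSO to DAC can come from this choice of members. Over probe sets, 4191 (14.1%) of 29738 were higher by 2-fold or more in MDS-L and 4146 (13.9%) in SKM-1. Counts of genes were 246 and 207 at 8-fold and 110 and 82 at 16-fold. The other line lay under background for 341 of the genes higher in MDS-L and 358 of those higher in SKM-1. The median difference over all measured genes was -0.02. Probe sets of 1 gene gave differences with a pooled SD of 0.50 (7807 genes), a spread that leaves out any difference between samples. Pearson's r over probe sets was 0.899 for the DAC arrays and 0.914 for the DMSO arrays, and probe sets are no replicates.

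**Figure D1:**
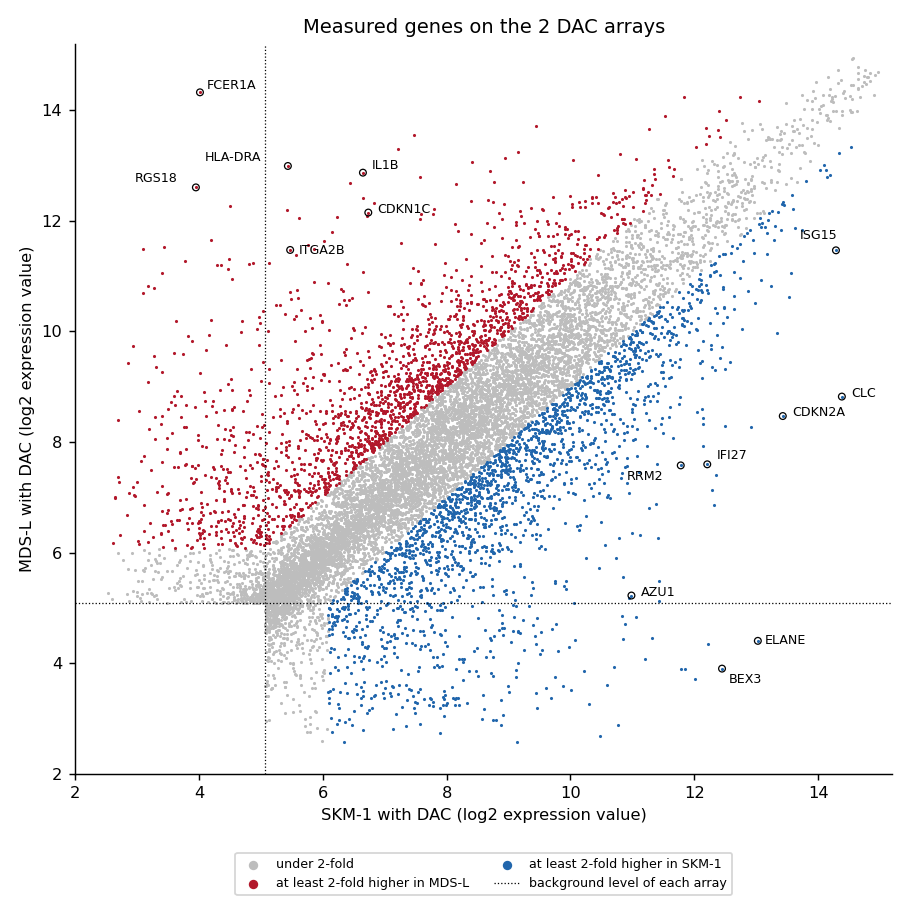
Log2 expression value of each measured gene with DAC in SKM-1 (x axis) and MDS-L (y axis), 1 array each, colored by the direction of a difference of at least 2-fold, with dotted lines at the background level of each array. FCER1A at 14.33 in MDS-L and ELANE at 13.03 in SKM-1 lie farthest from the diagonal on either side, and the other line is under background for both. Genes not reported here are not drawn.

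The surface antigens that the study gives for MDS-L were read on both treated arrays first. CD34, an antigen of stem and progenitor cells, read 8.13 in MDS-L against 5.76 in SKM-1 with DAC (8.97 and 5.75 with DMSO), 5.15-fold higher in MDS-L. KIT, the receptor of stem cell factor, had 8.84 and 3.59 (9.15 and 3.25 with DMSO), at least 13.6-fold higher in MDS-L. ANPEP, the aminopeptidase known as CD13, had 12.33 and 6.83 (11.95 and 5.96), 45.0-fold higher. All 3 are antigens given as present on MDS-L, and all 3 were higher there with either treatment. ITGA2B, the integrin chain of platelets given as present on some MDS-L cells, had 11.47 and 5.47 (11.52 and 5.65), 64.0-fold higher. Other antigens are given as absent from MDS-L, a description of the cells without DAC. CD14, the monocyte receptor for lipopolysaccharide, read 7.61 in MDS-L against 3.79 in SKM-1 (6.59 and 3.72), at least 5.81-fold higher in MDS-L. CD3D, which signals for the T cell receptor, had 8.91 and 4.09 with DAC and lay under background in both lines with DMSO (3.98 and 4.10). Its ratio of at least 14.3 was thus present on the DAC arrays only. CD3E, which acts with it, had 5.45 and 5.42, and the B cell antigen MS4A1 lay under background on all 4 arrays.

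Mast cell and basophil genes included the largest ratio between the treated lines. Of 18 measured members of this list, 9 were higher by 2-fold or more in MDS-L and 2 in SKM-1, with a median difference of 0.92 (0.37 with DMSO). FCER1A, the IgE-binding chain of the high-affinity Fc receptor of mast cells and basophils, read 14.33 in MDS-L against 4.02 in SKM-1 with DAC (14.23 and 4.03 with DMSO), at least 611-fold higher in MDS-L. HPGDS, the synthase of prostaglandin D, had 11.13 and 4.47 (10.43 and 4.40), at least 66.8-fold higher. CPA3, a carboxypeptidase of mast cell granules, had 9.56 and 3.28 (8.63 and 3.55), at least 22.5-fold higher. SKM-1 lay under background for these 3 genes with either treatment. SIGLEC6, a sialic acid-binding receptor of mast cells, was higher in MDS-L by at least 58.9-fold (10.95 against 4.53), and AKAP12, a scaffold of protein kinase A, was 9.05-fold higher (10.32 against 7.14). The 2 members that were higher in SKM-1 are proteins of eosinophil and basophil granules. CLC, which forms Charcot-Leyden crystals, read 8.82 in MDS-L against 14.38 in SKM-1 (7.43 and 14.02), 47.2-fold higher in SKM-1. PRG2, the major basic protein, had 11.42 and 12.96 (10.84 and 13.57), 2.92-fold higher in SKM-1. In RNA from whole cultures, fewer cells of a type and less RNA per cell cannot be told apart, here or in any other gene group.

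**Figure D2:**
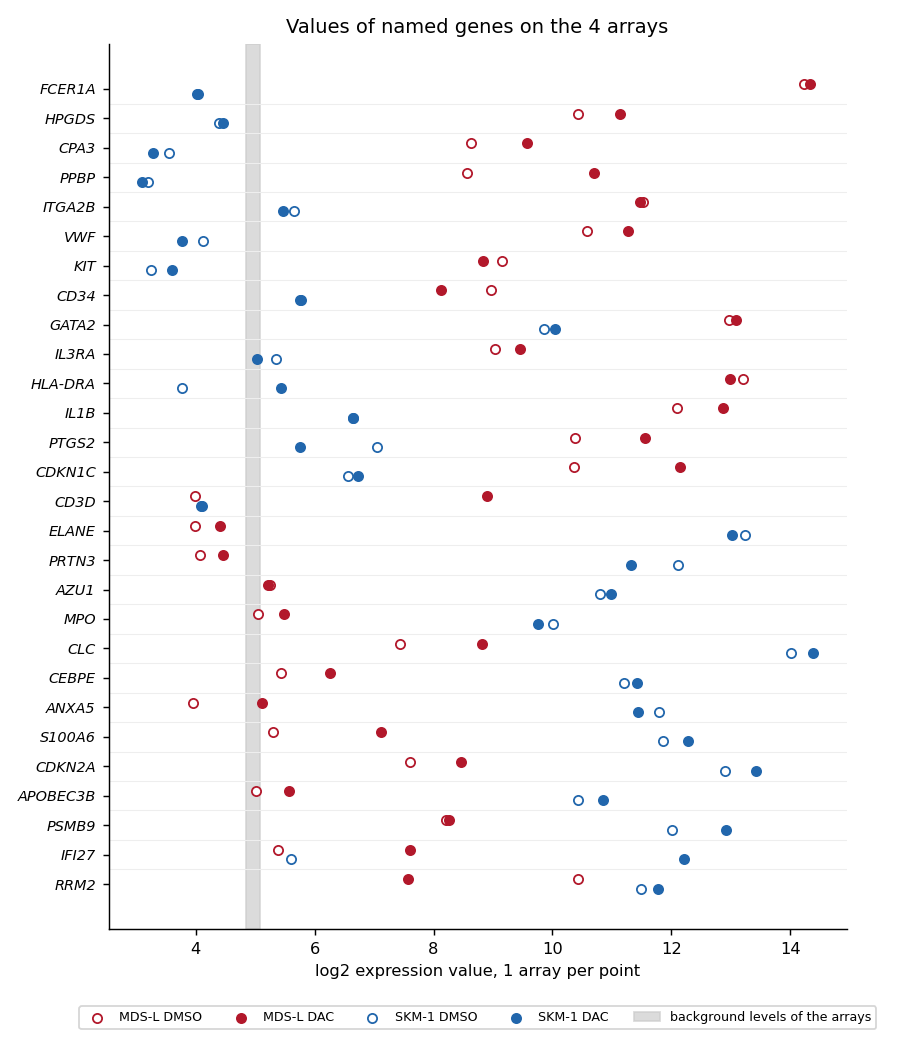
Log2 expression value (x axis) of 28 named genes on each of the 4 arrays, with MDS-L in red and SKM-1 in blue, DMSO open and DAC filled, and the range of the background levels in grey. CD3D is above background on the MDS-L DAC array only, IFI27 separates the lines with DAC and not with DMSO, and for most other genes both arrays of a line lie together. Levels of different genes are not comparable.

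Megakaryocyte and platelet genes were also mostly higher in MDS-L, with 16 of 30 measured members higher by 2-fold or more there, 1 at least 2-fold higher in SKM-1, and a median difference of 1.19 (0.25 with DMSO). The shift of single members, the difference with DAC minus that with DMSO, had a median of 0.39. VWF, the adhesive protein of platelet granules, read 11.28 in MDS-L against 3.78 in SKM-1 with DAC (10.58 and 4.12 with DMSO), at least 73.9-fold higher in MDS-L, although 1 of its 4 probe sets above background was 0.22 lower there. PPBP, the chemokine known as platelet basic protein, had 10.70 and 3.10 (8.56 and 3.19), at least 49.5-fold higher. ANGPT1, a ligand of the TEK receptor, had 11.38 and 5.58 (12.12 and 4.99), 55.8-fold higher. For these 3 genes the lower MDS-L array still lay far above both SKM-1 arrays. MMRN1, a carrier of factor V in platelets, was higher in MDS-L by at least 35.3-fold (10.21 against 4.19). SPARC, a matrix protein of platelet granules, went the other way with 7.36 in MDS-L against 9.75 in SKM-1 (4.36 and 10.17), 5.22-fold higher in SKM-1. Genes of red cells showed no such lean, with 5 of 27 measured members higher by 2-fold or more in MDS-L, 4 in SKM-1 and a median of -0.11. RHAG, a membrane protein of red cells, was higher in MDS-L by at least 9.02-fold (8.24 against 4.41), and TFR2, a transferrin receptor, at least 3.33-fold higher in SKM-1 (4.83 against 6.82), a direction that was lost with a higher background level.

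GATA factors bind the letters AGATAA and these, on either strand, were searched in RefSeq promoters of build GRCh38.p14, from 250 bases before to 50 bases after each gene's start. It was present in 12.4% of the 27305 genes with a promoter there and in 8.40% of the measured ones. Among members of the mast cell and megakaryocyte lists that were higher by 2-fold or more in MDS-L, 6 of the 18 with a promoter held it. Other gene groups described below held it as well, in 2 of 8 granule protein genes higher in SKM-1. Among interferon genes it was in 2 of 7 higher in MDS-L, 4 of 25 higher in SKM-1 and 3 of 14 under 2-fold. Replication and mitosis genes higher in SKM-1 held it in 1 of 73. The share is thus not particular to the mast cell and megakaryocyte lists. Parts of 4 of these promoters are shown, because they belong to genes with ratios of over 16-fold, with the motif in capitals on the strand of the gene.
FCER1A, chr1:159302189-159302244, plus strand: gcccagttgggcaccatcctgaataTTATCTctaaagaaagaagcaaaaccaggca
HPGDS, chr4:94342917-94342972, minus strand: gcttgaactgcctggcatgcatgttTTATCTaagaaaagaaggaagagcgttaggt
CPA3, chr3:148865226-148865281, plus strand: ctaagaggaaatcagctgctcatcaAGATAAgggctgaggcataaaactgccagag
PPBP, chr4:73988377-73988432, minus strand: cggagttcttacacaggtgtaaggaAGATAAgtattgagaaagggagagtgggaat
A match of these letters is a description of the promoter, and no binding was measured.

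Stem and progenitor genes were mostly higher in MDS-L with DAC. Of 23 measured members, 15 were higher by 2-fold or more in MDS-L and 1 in SKM-1. Their median difference was 1.88 with either treatment, while 13 were called for MDS-L with DMSO and single members moved both ways, the ratio being at least 2-fold greater with DAC in 4 and at least 2-fold smaller in 3. Besides KIT, CD34 and ANGPT1, these included SOCS2, an inhibitor of cytokine signaling, with 11.08 in MDS-L against 6.65 in SKM-1 (10.59 and 7.19 with DMSO), 21.6-fold higher in MDS-L. MYCN, a MYC family transcription factor, had 9.36 and 3.31 (10.24 and 3.24), at least 19.5-fold higher. MEIS1, a cofactor of HOX proteins, had 8.94 and 4.54 (9.17 and 4.84), at least 14.7-fold higher. The single member higher in SKM-1 was MECOM, which encodes the transcription factor EVI1, with 5.07 in MDS-L against 7.72 in SKM-1 (4.86 and 8.40), so that SKM-1 was higher by at least 6.20-fold.

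Of 62 measured transcription factors of blood cells, 25 were higher by 2-fold or more in MDS-L and 6 in SKM-1, with a median difference of 0.54 (0.48 with DMSO). GATA2, a factor of stem cells, mast cells and megakaryocytes, read 13.09 in MDS-L against 10.04 in SKM-1 with DAC (12.96 and 9.85 with DMSO), 8.33-fold higher in MDS-L. GFI1B, a repressor of the megakaryocyte and erythroid lineages, had 9.32 and 4.84 (9.14 and 5.30), at least 19.0-fold higher. TAL1, a partner of GATA factors, had 9.06 and 5.69 (8.10 and 5.15), 10.4-fold higher. All 6 probe sets of GATA2 above background went the same way, and TAL1 and GFI1B have 1 each. ERG, an ETS factor of stem cells, was higher in MDS-L by at least 7.99-fold, RUNX3 8.20-fold, BCL11A, a repressor of fetal globin, at least 14.7-fold and ZBTB16 7.30-fold. CEBPE, a factor of late granulocyte maturation, was the extreme in the other direction, with 6.26 in MDS-L against 11.42 in SKM-1 (5.43 and 11.20), 35.7-fold higher in SKM-1. CEBPA, which drives the granulocyte lineage, had 10.45 and 11.93 with DAC and 11.85 and 11.30 with DMSO, so it was 2.79-fold higher in SKM-1 with DAC and 0.55 (log2) higher in MDS-L with DMSO. SPI1, the factor known as PU.1, was 2.24-fold higher in SKM-1 (6.67 against 7.83), BATF3 4.14-fold and JDP2 3.73-fold, and MECOM is the other member higher in SKM-1. MYC, MYB, GATA1, CEBPB and IKZF1 differed by less than 2-fold, with differences of -0.12, -0.05, 0.42, 0.12 and 0.32. Of 14 measured HOX genes and cofactors, 3 were higher in MDS-L and 2 in SKM-1. HOXB2 was 36.1-fold higher in MDS-L (10.76 against 5.58), and MEIS2 at least 12.3-fold higher in SKM-1 (4.46 against 8.70).

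Growth factor and cytokine receptors were higher in MDS-L more often than in SKM-1, with 22 and 5 of 49 measured members and a median difference of 0.66 (0.16 with DMSO). IL3RA, the specific chain of the IL-3 receptor, read 9.45 in MDS-L against 5.04 in SKM-1 with DAC (9.04 and 5.34 with DMSO), at least 20.9-fold higher in MDS-L. CSF2RB, the chain shared by the receptors of IL-3, IL-5 and GM-CSF, had 13.72 and 9.45 (13.62 and 9.55), 19.4-fold higher. IL2RG, the common gamma chain, had 10.06 and 5.83 (10.56 and 5.75), 18.7-fold higher. Both chains that bind IL-3 were thus higher in the line that was grown with it, with DMSO as with DAC. CXCR4, a chemokine receptor of marrow homing, was higher in MDS-L by at least 12.7-fold (8.74 against 4.77), IL2RB 12.4-fold, TGFBR2 11.1-fold, IL18R1 at least 8.69-fold and TNFRSF1B 8.37-fold. In SKM-1, IL13RA1, a chain of the IL-4 and IL-13 receptors, was at least 7.05-fold higher (4.51 against 7.90). IL6R, the IL-6 receptor, was 4.62-fold higher there (7.28 against 9.49), CSF3R, the receptor of G-CSF, 3.61-fold, IL15RA 2.95-fold and TGFBR3 2.93-fold. CSF1R, EPOR, INSR and IL17RA differed by less than 2-fold, at -0.26, -0.20, -0.24 and 0.02.

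HLA class II genes, which present peptides to helper T cells, separated the lines by ratios of up to 188-fold. HLA-DRA, the alpha chain of HLA-DR, read 12.99 in MDS-L against 5.44 in SKM-1 with DAC (13.21 and 3.77 with DMSO), 188-fold higher in MDS-L. HLA-DPA1, the alpha chain of HLA-DP, had 12.04 and 7.57 (11.81 and 6.62), 22.0-fold higher. CD74, the invariant chain that guides class II molecules, had 10.64 and 7.64, 8.01-fold higher. The difference was smaller with DAC than with DMSO, by shifts of -0.74 for HLA-DPA1 and -1.06 for CD74 (log2), and HLA-DRA in SKM-1 with DMSO lay under background. Of 17 measured members of the list, 10 were higher by 2-fold or more in MDS-L and 4 in SKM-1. The 4 were RFX5, RFXAP and RFXANK, subunits of the factor that binds class II promoters, at 3.45-fold, 2.96-fold and 2.03-fold, and the protease CTSS at 2.61-fold. HLA-DRB1 and HLA-DRB4 were 49.0-fold and 49.8-fold higher in MDS-L, but probes of these near copies cannot be kept apart with certainty. When probe sets marked as not specific to 1 transcript were left out, the median of the list went from 1.57 to -0.17. Genes with no other probe set drop out under that setting, so the medians can be over different members.

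Of 36 T and NK cell genes on the array 22 were measured, with 6 of these higher by 2-fold or more in MDS-L and 1 in SKM-1. LAT, an adaptor of the T cell receptor that mast cells and platelets also use, read 12.19 in MDS-L against 5.43 in SKM-1 (11.55 and 5.50), 109-fold higher in MDS-L. The kinase LCK had 7.77 and 4.99 (5.18 and 4.63), at least 6.48-fold higher. LEF1, a factor of WNT signaling and T cell development, had 5.82 and 8.19 (3.61 and 7.97), 5.18-fold higher in SKM-1. Of 14 measured B cell genes, 4 were higher in MDS-L and 0 in SKM-1, the 4 being JCHAIN, POU2AF1, STAP1 and CD24. POU2AF1, a coactivator of antibody genes, was above background on the MDS-L DAC array alone (6.35).

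Granule proteins of neutrophil precursors were mostly higher in SKM-1. Of 21 measured members, 12 were higher by 2-fold or more in SKM-1 and 3 in MDS-L, with a median difference of -1.19 (-1.33 with DMSO). ELANE, neutrophil elastase, read 4.40 in MDS-L against 13.03 in SKM-1 with DAC (3.98 and 13.24 with DMSO), at least 246-fold higher in SKM-1. PRTN3, proteinase 3, had 4.45 and 11.32 (4.06 and 12.11), at least 75.2-fold higher. AZU1, azurocidin, had 5.22 and 10.98 (5.24 and 10.80), 54.3-fold higher. MDS-L lay under background for ELANE and PRTN3 with either treatment, and at most at 5.24 for AZU1. MPO, myeloperoxidase, had 5.48 and 9.76 (5.04 and 10.01), 19.4-fold higher in SKM-1, and BPI, which binds bacterial lipopolysaccharide, was at least 9.04-fold higher (3.70 against 8.26). The 3 members higher in MDS-L were CST7, an inhibitor of granule proteases, at least 16.3-fold, the gelatinase MMP9 15.3-fold and the serine protease PRSS57 3.96-fold. MMP9 read 12.71 in MDS-L against 8.77 in SKM-1 with DAC (10.03 and 7.27 with DMSO).

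Monocyte genes were higher in MDS-L more often than in SKM-1, with 13 (31.7%) and 7 (17.1%) of 41 measured members at 2-fold or more. The share in SKM-1 lay near the 15.6% over all genes. The median difference was 0.56 (0.006 with DMSO). FCN1, a lectin of classical monocytes, read 7.18 in MDS-L against 10.33 in SKM-1 (6.27 and 10.19), 8.87-fold higher in SKM-1, and MNDA, a nuclear antigen of myeloid cells, was 8.18-fold higher there (9.30 against 12.33). ITGAM, the integrin chain CD11b, was 4.46-fold higher in MDS-L (8.89 against 6.74), TYROBP, an adaptor of activating receptors, 4.37-fold, and CX3CR1, the fractalkine receptor, at least 6.52-fold. Of 17 measured genes of Toll-like receptor signaling, 4 were higher by 2-fold or more in MDS-L and 3 in SKM-1, with a median of 0.07. TLR4, which senses lipopolysaccharide, was 5.99-fold higher in SKM-1 (5.62 against 8.20), TLR2 was 2.25-fold higher in SKM-1, and TLR1 was higher in MDS-L by at least 2.15-fold.

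S100 proteins and annexins held members at both ends, 6 of 22 measured members higher by 2-fold or more in either line. ANXA5, which binds phosphatidylserine, read 5.12 in MDS-L against 11.43 in SKM-1 with DAC (3.95 and 11.80 with DMSO), 79.7-fold higher in SKM-1, with all 6 probe sets in that direction. S100A6 had 7.12 and 12.28 (5.30 and 11.86), 35.8-fold higher, and S100A10, the partner of annexin A2, had 6.27 and 10.79 (3.70 and 10.35), 22.9-fold higher. ANXA6 was at least 31.7-fold higher in SKM-1 (4.42 against 10.07). In MDS-L, S100A16 had 9.51 against 5.80 (5.77 and 5.08), 13.1-fold higher, and S100A3 at least 11.4-fold higher (8.58 against 4.54). These 2 differed by less than 2-fold with DMSO.

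Several other genes with ratios above 45-fold belong to none of these groups. In MDS-L they included RGS18, a regulator of G protein signaling in platelets, at least 186-fold (12.61 against 3.95), HPGD, which degrades prostaglandins, at least 146-fold (12.26 against 4.50), and SPINT2, a protease inhibitor, at least 96.5-fold (11.66 against 4.19). SLC40A1, the iron exporter ferroportin, was 67.3-fold higher in MDS-L (13.29 against 7.22), CD52 67.5-fold (13.54 against 7.47) and WFDC1 86.5-fold (12.05 against 5.62). All 8 probe sets of HPGD above background and both of SLC40A1 went the same way. In SKM-1 they included BEX3 at least 165-fold (3.90 against 12.45), TMSB15A, a thymosin that binds actin, at least 140-fold (4.34 against 12.22), and RPL39L, a copy of a ribosomal protein gene, at least 121-fold (3.71 against 12.01). DNAJC15, a mitochondrial cochaperone, was at least 109-fold higher in SKM-1 (3.90 against 11.86), UBE2E3, a ubiquitin-conjugating enzyme, at least 104-fold (3.89 against 11.79), and GAL, the neuropeptide galanin, 61.5-fold (5.49 against 11.43). RPL39L and TMSB15A have near copies in the genome, so cross-hybridization of their single probe sets is possible and was not tested.

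Inflammatory cytokines and alarmins were higher in MDS-L, with 24 of 40 measured members higher by 2-fold or more there, 1 in SKM-1 and a median difference of 1.57 (0.44 with DMSO). The shift of single members, the difference with DAC minus that with DMSO, had a median of 0.75. SPP1, the cytokine osteopontin, read 12.68 in MDS-L against 6.44 in SKM-1 with DAC (11.42 and 6.96 with DMSO), 75.5-fold higher in MDS-L. IL1B, interleukin-1 beta, had 12.87 and 6.65 (12.10 and 6.64), 74.7-fold higher. PTGS2, the inducible cyclooxygenase, had 11.56 and 5.76 (10.38 and 7.05), 55.6-fold higher. Each of these 3 ratios was greater with DAC than with DMSO, by 1.78 for SPP1, 0.77 for IL1B and 2.46 for PTGS2 (log2). IL16, a T cell chemoattractant, was 26.7-fold higher in MDS-L (10.38 against 5.64), TNFAIP6 11.8-fold (10.06 against 6.49), and IL6 at least 11.1-fold (8.54 against 4.27). The member higher in SKM-1 was IL18, an inflammasome product, at 2.22-fold (7.16 against 8.31). Among the 12 measured inflammasome genes, the caspase recruitment genes CARD16 and CARD8 were 7.64-fold and 5.59-fold higher in MDS-L, and CASP1, caspase-1, was 2.20-fold higher. GSDMD, the pore-forming gasdermin cut by caspase-1, was 2.34-fold higher in SKM-1 with DAC (8.76 against 9.99) and 0.41 (log2) lower in SKM-1 with DMSO. Integrins and tetraspanins were also higher in MDS-L in 12 of 35 members and in SKM-1 in 1, TSPAN18 at 2.29-fold. ITGA6, a laminin receptor chain, was 22.0-fold higher in MDS-L (10.25 against 5.79), and ITGAV 5.24-fold.

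Interferon response genes, which restrict viral replication, leaned to SKM-1 after DAC. Of 57 measured members, 31 were higher by 2-fold or more in SKM-1 and 8 in MDS-L, with a median difference of -1.14 against -0.22 with DMSO, where 11 were higher in SKM-1 and 10 in MDS-L. IFI27, a mitochondrial protein, read 7.60 in MDS-L against 12.21 in SKM-1 with DAC (5.38 and 5.60 with DMSO), 24.5-fold higher in SKM-1. OAS1, a synthase of the messenger that activates RNase L, had 4.96 and 8.85 (4.41 and 6.26), at least 13.6-fold higher. IFIT1, which binds viral RNA, had 8.33 and 11.46 (5.89 and 7.13), 8.77-fold higher. For IFI27 and IFIT1 the value with DAC exceeded that with DMSO in both lines, by more in SKM-1, whereas OAS1 lay under background in MDS-L with either treatment. Over the list, DAC minus DMSO had a median of 0.45 in MDS-L against 1.31 in SKM-1. The ratio MDS-L to SKM-1 was at least 2-fold smaller with DAC than with DMSO in 26 members and at least 2-fold greater in 2. ISG15, a ubiquitin-like modifier, was 7.06-fold higher in SKM-1 (11.47 against 14.29), and IFI35 6.48-fold (8.17 against 10.87).

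The interferon genes that were higher in MDS-L with DAC are fewer. GBP5 and GBP4, GTPases that interferon gamma induces, were at least 18.1-fold (9.25 against 4.02) and at least 7.78-fold higher. IFI16, a DNA sensor, was 5.82-fold higher in MDS-L (10.04 against 7.50), the chemokine CXCL11 at least 4.35-fold (7.19 against 2.93) and the nucleotide kinase CMPK2 4.21-fold (12.43 against 10.35). With DMSO, GBP5, GBP4, IFI16 and CMPK2 were already higher in MDS-L, by 3.58, 2.66, 3.37 and 4.74 (log2). CMPK2 then read 12.35 in MDS-L and 7.61 in SKM-1, so its ratio was smaller with DAC. CXCL11 lay under background in both lines with DMSO. Of sensors and signaling genes, 10 of 35 measured members were higher by 2-fold or more in MDS-L and 7 in SKM-1. SOCS1, which inhibits JAK kinases, was 19.4-fold higher in MDS-L (9.83 against 5.55), JAK1 6.19-fold, and the cytidine deaminase APOBEC3G 7.73-fold. APOBEC3B, a related deaminase, was 39.1-fold higher in SKM-1 (5.56 against 10.85), SAMHD1, which hydrolyzes deoxynucleotides, 11.8-fold, and EIF2AK2, a kinase that double-stranded RNA activates, 4.74-fold. IRF7, the factor that amplifies type I interferon, was 2.60-fold higher in SKM-1 with DAC (9.64 against 11.02) and 0.38 (log2) higher in MDS-L with DMSO.

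Factors of the interferon pathway bind the interferon-stimulated response element, searched here as GAAA, any 2 bases and GAAA again on both strands of the same RefSeq promoters. It was present in 4.38% of all genes and 4.02% of the measured ones, against 19 of 25 (76.0%) interferon genes that were higher by 2-fold or more in SKM-1, 3 of 7 that were higher in MDS-L and 12 of 14 that differed by less than 2-fold. The share was thus not lower in members that differed by less than 2-fold between the lines. Promoter parts of 3 genes higher in SKM-1 and of TNFSF10, a death ligand that was 3.40-fold higher in MDS-L (9.81 against 8.04), are shown side by side, with every match in the stretch in capitals.
IFI27, chr14:94110616-94110675, plus strand: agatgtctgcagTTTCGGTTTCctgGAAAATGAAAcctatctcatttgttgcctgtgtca
IFIT1, chr10:89392495-89392554, plus strand: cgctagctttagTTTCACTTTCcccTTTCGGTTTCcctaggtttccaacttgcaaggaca
ISG15, chr1:1013365-1013424, plus strand: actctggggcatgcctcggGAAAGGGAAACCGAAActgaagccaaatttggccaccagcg
TNFSF10, chr3:172523583-172523642, minus strand: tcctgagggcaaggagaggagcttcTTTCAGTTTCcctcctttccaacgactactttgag
The stretches of IFI27, IFIT1 and ISG15 hold 2 matches each, which overlap in ISG15, and that of TNFSF10 holds 1. These genes were picked for display, and the number of matches was not compared over the list.

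HLA class I and peptide loading genes went with SKM-1, with 11 of 23 measured members higher by 2-fold or more there, 0 in MDS-L and a median difference of -0.999 (-0.60 with DMSO). PSMB9, a subunit of the immunoproteasome, read 8.27 in MDS-L against 12.92 in SKM-1 with DAC (8.21 and 12.01 with DMSO), 25.1-fold higher in SKM-1. TAP2, a chain of the peptide transporter, had 7.26 and 10.54 (7.44 and 9.92), 9.68-fold higher. PSMB8, another immunoproteasome subunit, had 9.32 and 12.50 (10.12 and 12.32), 9.05-fold higher. HLA-F, a nonclassical class I chain, was 43.5-fold higher in SKM-1 (6.87 against 12.31), although its 7 probe sets ran from -5.53 to -0.11 and share sequence with other class I genes. The class I list thus leaned to SKM-1, and the class II list to MDS-L with the exceptions given there.

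**Figure D3:**
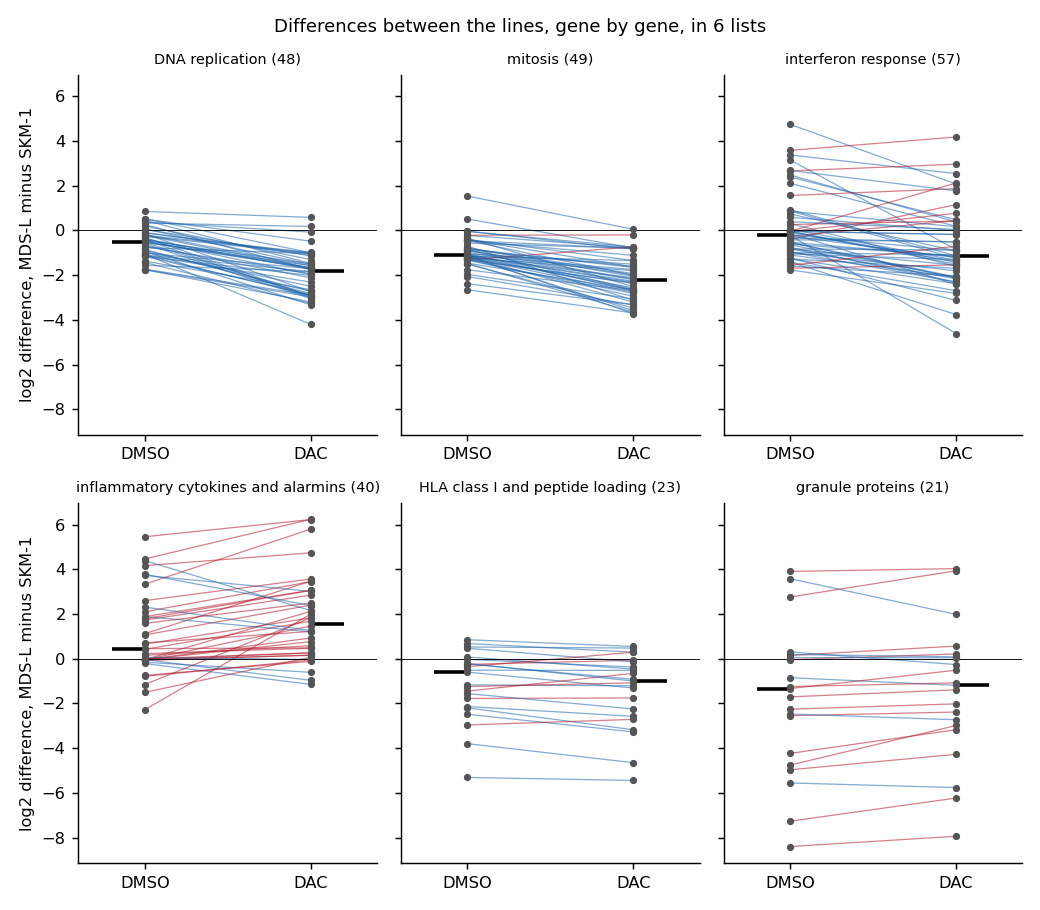
Log2 difference MDS-L minus SKM-1 (y axis) of each measured member of 6 gene lists with DMSO and with DAC, joined by a line. The line is red where this signed value is higher with DAC and blue where it is lower, and black bars mark the medians. All 48 DNA replication genes have a lower signed value with DAC, which is a move toward SKM-1. Their median goes from -0.52 with DMSO to -1.80 with DAC. Most interferon genes move toward SKM-1 too, and most inflammatory genes go the other way.

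Cell division genes were mostly higher in SKM-1 with DAC. Of 48 measured DNA replication genes, 43 (89.6%) were higher by 2-fold or more in SKM-1 and 0 in MDS-L, and of 49 mitosis genes 40 (81.6%) and 0. With DMSO the counts higher in SKM-1 were 13 and 27, and 1 mitosis gene was higher in MDS-L. The median difference of the replication genes was -1.80 with DAC and -0.52 with DMSO, and that of the mitosis genes -2.20 and -1.10. The ratio moved toward SKM-1 with DAC in 48 of 48 replication genes. DAC minus DMSO had a median of -1.44 in MDS-L against -0.06 in SKM-1 over the replication genes, and of -1.26 and -0.12 over the mitosis genes. RRM2, the small subunit of ribonucleotide reductase, read 7.58 in MDS-L against 11.78 in SKM-1 with DAC (10.43 and 11.49 with DMSO), 18.4-fold higher in SKM-1. GINS1, a subunit of the replicative helicase complex, had 8.17 and 11.50 (10.46 and 11.40), 10.1-fold higher. SPC25, a kinetochore protein, had 6.41 and 10.13 (8.54 and 9.66), 13.2-fold higher. In these 3 genes the SKM-1 arrays lay within 0.48 (log2) of each other, and the MDS-L DAC array was the lowest of the 4. KIF20A, a kinesin of cytokinesis, was 12.9-fold higher in SKM-1 (5.56 against 9.25), CENPK 12.6-fold, CENPM 12.1-fold and CCNA2, cyclin A, 11.1-fold.

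E2F factors drive genes of the S phase through sites close to TTTGGCGC, TTTCCCGC or TTTCGCGC, which were searched on both strands of the same promoters. At least 1 of these was present in 3.30% of all genes and 5.41% of the measured ones, against 21 of 73 (28.8%) replication and mitosis genes that were higher by 2-fold or more in SKM-1. Replication and mitosis genes that differed by less than 2-fold were not counted apart, so this share says nothing of the difference between the lines. The promoter parts below belong to 4 of the 21 genes, with the motif in capitals.
GINS2, chr16:85688955-85689010, minus strand: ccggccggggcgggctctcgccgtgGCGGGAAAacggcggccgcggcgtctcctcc
UHRF1, chr19:4909462-4909500, plus strand: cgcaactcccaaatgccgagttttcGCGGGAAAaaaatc
CDT1, chr16:88803729-88803786, plus strand: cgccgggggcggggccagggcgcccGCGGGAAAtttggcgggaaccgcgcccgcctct
TYMS, chr18:657589-657646, plus strand: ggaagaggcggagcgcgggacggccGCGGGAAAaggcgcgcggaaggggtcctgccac
GINS2, of the helicase complex, was 9.64-fold higher in SKM-1 with DAC (6.94 against 10.21), and UHRF1, which brings DNMT1 to replicated DNA, 8.30-fold (7.25 against 10.30). CDT1 and TYMS are shown for their motif and were chosen after their values were seen. CDT1, a licensing factor of replication origins, was 7.74-fold higher (6.51 against 9.46), and TYMS, thymidylate synthase, 6.66-fold (10.04 against 12.77).

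Regulators of the cell cycle separated the lines in both directions. CDKN1C, the inhibitor known as p57, read 12.15 in MDS-L against 6.73 in SKM-1 with DAC (10.37 and 6.56 with DMSO), 42.7-fold higher in MDS-L. CCND2, cyclin D2, had 13.25 and 9.15 (12.89 and 9.86), 17.1-fold higher in MDS-L, and CCND1, cyclin D1, was at least 8.82-fold higher there (8.21 against 4.50). CDKN2A, which encodes the inhibitor p16, had 8.47 and 13.43 (7.60 and 12.91), 31.1-fold higher in SKM-1. Both inhibitors separated the lines in the same direction with DMSO. E2F8, a repressor of the E2F family, was 17.6-fold higher in SKM-1 (5.23 against 9.37), the phosphatase CDC25A 9.30-fold and CCNE1, cyclin E, 7.31-fold. CDKN1A, the inhibitor p21, and CDKN1B, the inhibitor p27, differed by -0.11 and 0.06.

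Among DNA methylation enzymes, the targets of DAC and their partners, 9 of 25 measured members were higher by 2-fold or more in SKM-1 and 1 in MDS-L, with a median of -0.41 (0.03 with DMSO). CDCA7, which recruits the remodeler HELLS, read 7.44 in MDS-L against 10.83 in SKM-1 (10.44 and 11.17), 10.5-fold higher in SKM-1, and HELLS had 6.81 and 8.79 (9.25 and 9.34), 3.97-fold higher. TET2, which oxidizes methylcytosine, was 5.65-fold higher in MDS-L (9.28 against 6.78). The methyltransferases DNMT1, DNMT3A and DNMT3B, named here for their role after their values were seen, differed by less than 2-fold, at -0.49, 0.64 and 0.41. Of 22 measured genes of DAC uptake and metabolism, 3 were higher by 2-fold or more in MDS-L and 6 in SKM-1, with a median of 0.0004. SLC29A1, a nucleoside transporter, was 3.74-fold higher in SKM-1 (6.80 against 8.71) and ABCC1, an efflux pump, 7.44-fold higher in MDS-L (10.50 against 7.60). SAMHD1, which hydrolyzes deoxynucleotides, belongs to this list too, with a difference of -3.56 (log2). Of 28 measured polycomb genes, 5 (17.9%) were higher by 2-fold or more in MDS-L and 6 (21.4%) in SKM-1, with a median of -0.04. The largest difference toward MDS-L was 1.57 (log2), and the 2 members named next were higher in SKM-1. EZH2, the methyltransferase of the complex, had 6.10 and 8.63 with DAC (8.21 and 8.86 with DMSO), 5.76-fold higher in SKM-1, and PCGF5 was at least 12.6-fold higher there.

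Targets of p53 and regulators of apoptosis were higher in MDS-L in 9 of 30 members each and in SKM-1 in 3 of 30 each. TP53INP1, a p53 target of stress responses, read 11.80 in MDS-L against 6.14 in SKM-1 (11.83 and 6.57), 50.3-fold higher in MDS-L, although its other probe set above background gave 0.84 (log2). RRM2B, the p53-induced subunit of ribonucleotide reductase, was 9.65-fold higher in MDS-L (10.86 against 7.58), opposite to RRM2. The survival proteins BCL2A1, BCL2 and BCL2L1 were 7.94-fold, 6.27-fold and 4.60-fold higher in MDS-L, as was BMF, which promotes apoptosis, at 7.15-fold. The death receptors TNFRSF10A and TNFRSF10B were at least 6.74-fold and 2.46-fold higher in SKM-1.

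The list read here holds the study's hub and FOXO1 pathway genes, and genes of its western blots such as BBC3, CCND1, CDKN1A and CDKN1B. The hub and pathway genes were chosen by the authors on these arrays, so the counts are no independent evidence. Of 33 measured members, 13 were higher by 2-fold or more in MDS-L and 4 in SKM-1, with a median of 0.77 (-0.01 with DMSO). FOXO1, a transcription factor of stress and arrest, read 8.32 in MDS-L against 6.94 in SKM-1 with DAC (7.37 and 7.38 with DMSO), 2.61-fold higher in MDS-L. FBXO32, a ubiquitin ligase subunit that FOXO factors induce, had 8.36 and 6.32 (6.27 and 5.86), 4.11-fold higher. BCL6, a repressor that FOXO factors induce, had 8.57 and 7.66 (6.92 and 7.78), 1.87-fold higher. With DMSO these 3 differed between the lines by less than 2-fold. SMAD3, a TGF-beta mediator, was 9.95-fold higher in MDS-L (10.93 against 7.62), BBC3, which encodes PUMA, 3.36-fold and BCL2L11, which encodes BIM, 1.97-fold. HOMER1 was at least 5.43-fold higher in SKM-1 (3.28 against 7.53), and PCK2, an enzyme of gluconeogenesis, 5.19-fold.

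Genes of lipid synthesis were higher in SKM-1 more often than in MDS-L. Of 27 measured genes of cholesterol and fatty acid synthesis, 12 were higher by 2-fold or more in SKM-1 and 2 in MDS-L, with a median of -0.83 (-1.28 with DMSO). EBP, a sterol isomerase, read 8.33 in MDS-L against 12.15 in SKM-1 (9.33 and 13.02), 14.1-fold higher in SKM-1. SCD, a fatty acid desaturase, had 8.24 and 11.07 (9.42 and 12.67), 7.10-fold higher. INSIG1, a sterol-sensing inhibitor of the pathway, had 12.83 and 10.45 (11.77 and 11.74), 5.20-fold higher in MDS-L. SQLE, squalene epoxidase, was the other member higher in MDS-L. Of 40 measured antioxidant genes and metallothioneins, 7 were higher by 2-fold or more in MDS-L and 11 in SKM-1, with a median of -0.27. GSTM3 and MT1F were 28.4-fold and 20.5-fold higher in SKM-1, and GSTP1 was 5.38-fold higher in MDS-L (11.85 against 9.43). Of 35 measured genes of the unfolded protein and ATF4 response, 8 were higher by 2-fold or more in MDS-L and 10 in SKM-1, with a median of 0.12. Among them PHGDH and ASNS, enzymes of serine and asparagine synthesis, were 12.6-fold and 5.10-fold higher in SKM-1, and the cystine transporter SLC7A11 was 4.73-fold higher in MDS-L.

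Genes often used as references were read in the same way. All 39 measured ribosomal protein genes differed by less than 2-fold, with a median of -0.20. Their median levels with DAC, 14.17 (MDS-L) and 14.22 (SKM-1), lay near the array maxima of 14.95 and 14.97. A value 2-fold above such a level would exceed the maximum. The count is therefore no yardstick for ratios of genes at lower levels. Of 26 measured housekeeping genes, 2 were higher in MDS-L and 6 in SKM-1 by 2-fold or more, with a median of -0.33 and the largest difference in GUSB, beta-glucuronidase, at 5.77-fold higher in SKM-1 (7.91 against 10.44). Genes of the commonly deleted region of chromosome arm 5q had a median of -0.38 (-0.41 with DMSO), with 14 of 46 measured members higher in SKM-1 and 3 in MDS-L. Cancer-testis genes, which promoter methylation silences in most tissues, were mostly under background, with 12 of 39 on the array measured. Of these 12, 4 were higher by 2-fold or more in SKM-1 and 1 in MDS-L, against 2 and 0 with DMSO. The 12 were chosen on the DAC arrays, so any member above background only with DMSO was not counted. PAGE4 and MAGEA4 were higher in SKM-1 by at least 4.15-fold and 3.14-fold, and under background in both lines with DMSO. DAZL was higher in MDS-L by at least 3.14-fold with the same pattern. PRAME and TEX15 were the other members higher in SKM-1. The direction of MAGEA4 was lost with a higher background level.

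**Figure D4:**
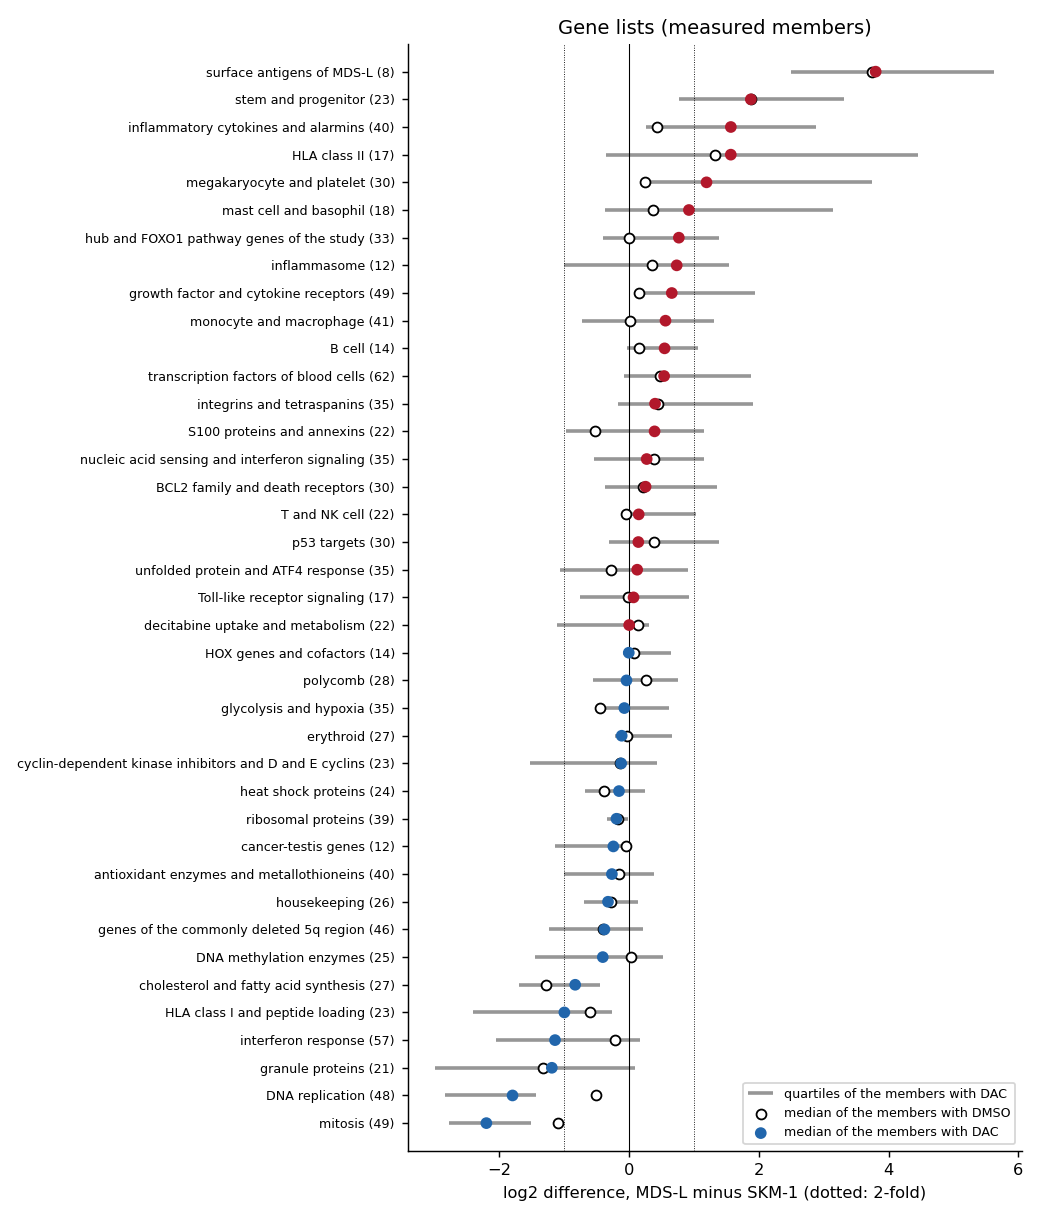
Median log2 difference MDS-L minus SKM-1 (x axis) of the measured members of 39 gene lists (number in brackets), filled with DAC and open with DMSO, with grey bars for the quartiles with DAC and dotted lines at 2-fold. Members are those measured with DAC, for both medians. Stem and progenitor genes have the same median of 1.88 with either treatment, and mitosis genes go from -1.10 with DMSO to -2.20 with DAC.

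Most of these differences were already there with DMSO. On the DMSO arrays 1623 (12.4%) of 13082 measured genes were higher by 2-fold or more in MDS-L and 1583 (12.1%) in SKM-1. Of the genes called with DAC, the same line was already 2-fold or more higher with DMSO in 1271 of 1964 (64.7%) for MDS-L and in 1218 of 2034 (59.9%) for SKM-1. Of the genes called with DMSO, 78.3% and 76.9% were also called with DAC. The SD of the difference over genes was 1.26 with DAC and 1.18 with DMSO, and Pearson's r of the differences was 0.880 (Spearman's rho 0.824) over 12726 genes, which are not independent and come from different arrays of the same lines. Of the genes higher in SKM-1 with DAC, 816 were under 2-fold with DMSO. Among these, DAC minus DMSO moved at least 2-fold toward the call in MDS-L alone for 168, in SKM-1 alone for 113, in both for 3 and in neither for 532. For the 693 such genes higher in MDS-L, the counts were 170, 34, 5 and 484.

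The ratio MDS-L to SKM-1 was at least 2-fold greater with DAC than with DMSO in 597 (4.45%) of 13418 genes and at least 2-fold smaller in 665 (4.96%). CD9, a tetraspanin of platelets, read 8.46 in MDS-L against 7.62 in SKM-1 with DAC (4.86 and 7.87 with DMSO). RAB13, a small GTPase, had 8.45 and 11.60 with DAC against 5.04 and 11.93 with DMSO. ANXA2, annexin A2, had 10.81 and 9.97 with DAC against 7.93 and 10.37 with DMSO. In these 3 genes the SKM-1 arrays differed by at most 0.40 (log2) and the MDS-L arrays by 2.88 to 3.60. IFI44, an interferon-induced protein, had 8.86 and 9.71 with DAC against 8.04 and 4.36 with DMSO. STAP1, a signaling adaptor, had 10.04 and 7.81 with DAC against 10.54 and 4.98 with DMSO. MND1, a meiotic recombination protein, had 6.88 and 11.38 with DAC against 8.96 and 10.05 with DMSO. For IFI44 and STAP1 the SKM-1 arrays lay farther apart than the MDS-L arrays, and for MND1 both lines differed, in opposite directions.

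**Figure D5:**
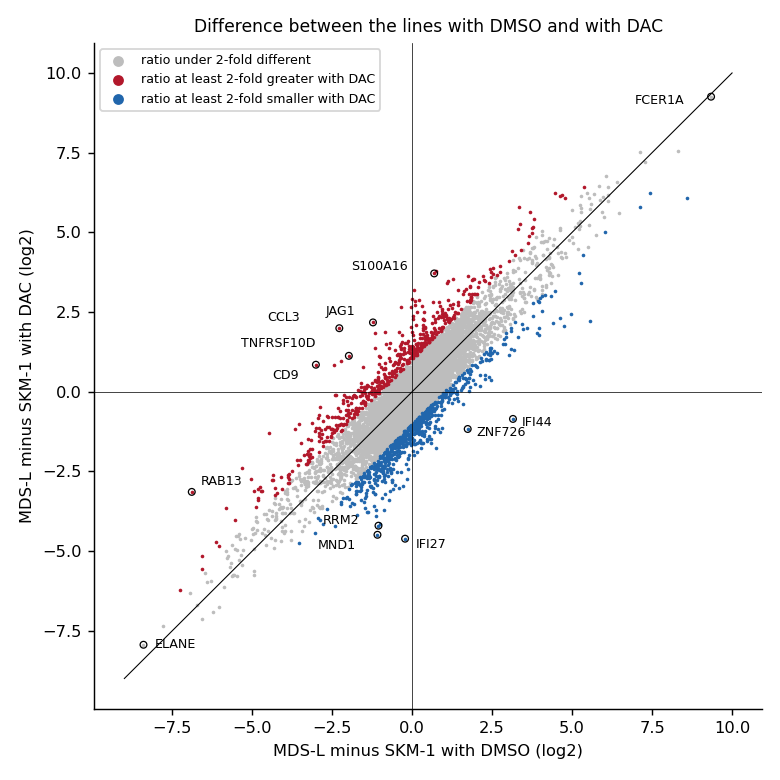
Log2 difference MDS-L minus SKM-1 with DMSO (x axis) and with DAC (y axis) for genes measured with both, red where the ratio was at least 2-fold greater with DAC and blue where it was at least 2-fold smaller, with a line of equality. FCER1A and ELANE lie near the line, whereas IFI27, RRM2 and MND1 lie below it and S100A16, JAG1 and CCL3 above it. Genes not reported here are not drawn.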

How the data were processed

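Expression was measured on 4 PrimeView arrays, 1 for each of MDS-L and SKM-1 with DMSO or DAC. The authors deposited a log2 expression value per probe set and array. Their methods name RMA in Partek, whereas the submitters' processing notes name MAS5, so the summary method is not settled. The methods name RNeasy for RNA and the labels Trizol. Groups came from the labels. No deposited column of per-sample values was left out (0).

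Of 49395 probe sets, the platform annotation lists 46826, of which 44994 have 1 gene symbol and 1832 several. It names no build. The deposited log2 values were used as given. Values under an array's background level (the 90th percentile of 359 olfactory receptor probe sets) were raised to it, and each gene took its probe set of highest 4-array mean. Differences are MDS-L minus SKM-1, called at 2-fold. With 1 array per group there is no test, and precision is limited by how few arrays there are.

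Genes named were the 15 largest differences and 15 largest bounds each way, the 10 largest shifts between DMSO and DAC each way (above background on at least 3 arrays), genes at least 2-fold different in opposite directions, the 5 largest each way of the 39 lists among members at least 2-fold different, and all transcription factors, receptors, surface antigens and hub genes. The members and lists were chosen with earlier results of these data known. Alternatives were other fold thresholds, background levels, normalizations, centring and probe set rules. The DMSO counts under these settings, and the rule that every probe set must pass, were added after the data were seen. Promoters are those of RefSeq (GRCh38.p14).

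The calling was tested on simulated data made from the SKM-1 DAC array for MDS-L against SKM-1 with DAC (12451 genes). With 4-fold effects built in, all 100 raised and all 100 lowered genes were called, and 0 of 12251 others. The noise in it had a size set by hand, so this checks the arithmetic and says nothing of error between samples. Python 3.11.15, numpy 2.4.6, pandas 2.3.3 and matplotlib 3.10.9 were used.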

Additional observations from a re-analysis of the deposited data

Results flagged for a closer look

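Genes that differed at least 2-fold between the lines in one direction with DMSO and at least 2-fold in the other with DAC were picked out. The difference between the treatments was not tested in any of them, since each value comes from 1 array. JAG1, a Notch ligand, had a difference of 2.17 with DAC and -1.23 with DMSO (log2, MDS-L minus SKM-1). The chemokine CCL3 had 1.99 and -2.28, and the chemokine CCL20 had 1.83 and -1.15. RGS16, a regulator of G protein signaling, had 1.37 and -1.16. TNFRSF10D, a decoy receptor of TRAIL, had 1.12 and -1.98, with 1 of its 2 probe sets in the other direction. CRIM1 had 1.11 and -1.03. ZNF726, a zinc finger gene, went the other way, with -1.17 with DAC and 1.74 with DMSO.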

How the results depend on the processing

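No paired analysis was possible because each line and treatment has 1 array and the labels carry no replicate numbers. At 1.5-fold, 3095 genes were higher in MDS-L and 3286 in SKM-1 with DAC (2824 and 2661 with DMSO), 6854 and 7071 probe sets were, and the ratio was greater with DAC in 1677 genes and smaller in 1875. At 4-fold these counts were 639 and 672 (508 and 536), 1237 and 1202, and 67 and 53, and at 8-fold 246 and 207 (226 and 225), 445 and 358, and 16 and 6. With the background at the 99th percentile of the olfactory receptor probe sets, 2701 probe sets were higher in SKM-1. That setting raises the floor above more of the low values, and the differences of MAGEA4 and TFR2 became 0.14 and 0.057. When every probe set of a gene had to pass, a rule added after the data were seen, 1092 genes were higher in MDS-L and 1476 in SKM-1, so that 42.5% of the called genes went to MDS-L. The median of the HLA class II list became -0.17 without probe sets marked as not specific to 1 transcript. That setting drops genes with no other probe set and left 11537 measured genes, so this median can be over different members. Which members of the list remained was not compared, and the cause was not tested. Of the 312 values of gene list medians under alternatives, 298 moved by less than the spread between probe sets, 13 moved by more, 12 of them with the sign kept, and 1, the class II median above, passed from 2-fold or more to the other sign. Of the 1822 values of named genes, 1499 moved by less than that spread, 321 moved by more, 319 of them with the sign kept, and 2, MAGEA4 and TFR2, passed from 2-fold or more to the other sign. Values near background have only bounds, so small ratios of dim genes are not resolved.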

Other observations

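Measured protein-coding genes that are neighbors in RefSeq order and at least 2-fold different in the same direction formed runs of at least 5 genes, 13 toward MDS-L and 9 toward SKM-1, which held 129 of 12743 ordered genes. These genes were picked by their position after their values were seen. The run with most genes held 11 zinc finger genes, from ZNF230 to ZNF285, with a median difference of 1.60 with DAC and 1.59 with DMSO. A run of 7 zinc finger genes, from ZNF28 to ZNF347, had a median of 1.56. PTGS2, PLA2G4A, RGS18, RGS1, RGS13 and RGS2 formed a run with a median of 3.52 with DAC and 1.92 with DMSO. SIGLEC12, SIGLEC6, ZNF175, SIGLEC5 and SIGLEC14 had a median of 4.98. In SKM-1, PLPPR3, AZU1, PRTN3, ELANE and CFD formed a run with a median of -5.76 with DAC and -5.56 with DMSO.

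Probe sets without 1 gene symbol also separated the treated lines. Of 1179 probe sets with several symbols above background, 153 were higher by 2-fold or more in MDS-L and 191 in SKM-1. Of 1469 probe sets above background that the annotation does not list, the counts were 206 and 185.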
